A study of Mus musculus with 12 samples.

Results

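Gasdermins are a family of proteins that open pores in the plasma membrane, and several members are made in the epidermis and the hair follicle. The genes followed here were all those of the deposited count table whose symbol starts with Gsdm, together with Dfna5, the older symbol of Gsdme. Of the 14533 genes listed with a symbol, 7 met this rule: Gsdma, Gsdma2, Gsdma3, Gsdmc, Gsdmc2, Gsdmd and Dfna5. Gsdmc3 and Gsdmc4 have no entry in the table and were not analysed here. Each comparison asks whether the level of a gasdermin transcript in scraped epidermis differs between WT and Pparg-/-epi mice. For Gsdma2 and Gsdma3 it was also asked how the level of each follows the amount of hair follicle RNA in the same library.

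RNA-seq was done on the scraped, frozen dorsal epidermis of 12 untreated C57BL/6 mice, with 1 library per mouse. All mice carried floxed alleles of Pparg. The 6 Pparg-/-epi mice (numbered 7 to 12) also carried a Cre recombinase gene under the keratin 14 promoter, and the 6 WT mice (numbered 1 to 6) did not. The keratin 14 promoter is active in basal keratinocytes, whose descendants include the cells of the follicle and the sebaceous gland, while dermal cells and leukocytes in the scrapings keep the gene. The WT group held 3 male and 3 female mice and the Pparg-/-epi group 2 male and 4 female mice, aged 8 to 13 weeks in both groups by the sample labels. Another record of the study gives other ages for WT 2 and Pparg-/-epi 10, so results with age as a covariate carry that doubt. RIN, a score of RNA integrity, ran from 5.9 to 8.6 in WT and from 5.7 to 8.6 in Pparg-/-epi. The counts assigned to listed genes ran from 10120840 to 16947632 per WT library and from 11272135 to 18851255 per Pparg-/-epi library.

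Pparg, the targeted gene, is counted over its whole length although a part of it is floxed, so its counts check no label. They ran from 5 to 269 in WT and from 16 to 107 in Pparg-/-epi, and the ranges overlapped. The highest value, 14.3 CPM, was that of WT 2. Over all genes this library lay inside the range of the Pparg-/-epi libraries on the first axis of multidimensional scaling, away from the other 5 WT libraries. It also stood apart from them in several of the measures below, and values without it are given where it decided a result.

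A gasdermin is made as an inactive protein in which a C-terminal domain holds back a pore-forming N-terminal domain. Proteases, among them the inflammatory caspases and granzymes, cleave the linker between these domains, and the freed N-terminal fragments assemble into pores through which cytokines of the interleukin-1 family leave the cell. Extensive pore formation ends in pyroptosis, a lytic form of cell death. Mutations in mouse Gsdma3 cause hair loss, thickened epidermis and loss of sebaceous glands, so transcripts of the Gsdma genes are of interest in skin with a follicle or gland phenotype.

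Mice have 3 Gsdma genes side by side, all on the + strand of chromosome 11 (mm10). In the deposited table Gsdma3 spans chr11:98626360-98638089, Gsdma2 chr11:98646759-98657957 and Gsdma chr11:98664351-98677708. Gsdmc (chr15:63775971-63808739) and Gsdmc2 (chr15:63824346-63845176) lie on the - strand of chromosome 15, Gsdmd (chr15:75862339-75867404) on its + strand, and Dfna5 (chr6:50207403-50261769) on the - strand of chromosome 6. The genes within each cluster are close copies, and reads that map to several places were removed before counting. A count for such a gene can therefore fall short, and how reads were shared among copies cannot be recovered from the table.

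The extent of this limit was measured on the GENCODE M21 transcripts (GRCm38, the assembly of mm10) as the share of 75-base windows of 1 transcript per gene that also occur in a transcript of another gene. The share was 3.43% for Gsdma, 5.44% for Gsdma2 and 0.285% for Gsdma3, with other Gsdma genes as the only partners. It was 11.2% for Gsdmc and 37% for Gsdmc2, whose partners were the other Gsdmc genes, including Gsdmc3 and Gsdmc4. The value for Gsdmc2 is thus the least secure of the 7. Gsdmd and Gsdme shared no window. Reads were paired, and a mate in a stretch that differs can place its partner, so these shares need not equal the share of reads lost. The longest identical run was 147 bases between Gsdma and Gsdma2, 70 bases between Gsdma2 and Gsdma3 and 317 bases between Gsdmc2 and Gsdmc3. Because most of the length of Gsdma2 and Gsdma3 is unique, their counts can be read separately from those of Gsdma. In WT 3, 1433 counts of Gsdma came with 0 counts of Gsdma2 and 1 count of Gsdma3.

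The closest stretch within the Gsdma cluster is coding exon 1, which is 214 bases long in each gene. It is shown because a read of Gsdma or Gsdma2 inside it can often not be assigned to 1 gene on its own. Gsdma3 shared 4 windows of 75 bases with Gsdma and none with Gsdma2, so its reads can nearly always be told from theirs. The sequences are from the + strand of chromosome 11 in GRCm38, at chr11:98666061-98666274 for Gsdma, chr11:98649054-98649267 for Gsdma2 and chr11:98629352-98629565 for Gsdma3. Capitals mark the 11 positions at which the 3 genes do not all have the same base.

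Gsdma: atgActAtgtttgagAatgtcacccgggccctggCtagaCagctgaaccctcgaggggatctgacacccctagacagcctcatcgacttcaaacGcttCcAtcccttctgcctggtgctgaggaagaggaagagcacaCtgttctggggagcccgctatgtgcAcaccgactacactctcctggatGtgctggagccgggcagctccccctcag

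Gsdma2: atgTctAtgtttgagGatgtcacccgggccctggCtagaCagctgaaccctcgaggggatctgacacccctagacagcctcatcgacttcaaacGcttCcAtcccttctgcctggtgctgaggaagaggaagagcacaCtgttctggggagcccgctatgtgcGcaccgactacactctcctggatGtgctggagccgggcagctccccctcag

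Gsdma3: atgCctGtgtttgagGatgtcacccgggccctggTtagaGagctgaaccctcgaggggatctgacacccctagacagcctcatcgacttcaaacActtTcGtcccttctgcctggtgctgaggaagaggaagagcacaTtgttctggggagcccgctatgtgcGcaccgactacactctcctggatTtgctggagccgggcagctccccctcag

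In this exon Gsdma and Gsdma2 differed at 3 positions (98.6% identical), Gsdma2 and Gsdma3 at 9 (95.8%) and Gsdma and Gsdma3 at 11 (94.9%). Identity was lower in coding exon 2, at 86.7% for Gsdma and Gsdma2, 84.0% for Gsdma2 and Gsdma3 and 92.3% for Gsdma and Gsdma3.

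Coding exon 2 of the Gsdmc genes, 178 bases long, is shown for the same reason. It reads from the - strand of chromosome 15 in GRCm38, at chr15:63834930-63835107 for Gsdmc2, chr15:63868283-63868460 for Gsdmc3 and chr15:63901916-63902093 for Gsdmc4. The capital marks the 1 position that is not the same in all 3.

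Gsdmc2: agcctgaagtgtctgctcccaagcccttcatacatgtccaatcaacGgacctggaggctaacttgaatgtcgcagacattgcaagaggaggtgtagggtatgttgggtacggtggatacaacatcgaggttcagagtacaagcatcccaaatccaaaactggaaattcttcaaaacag

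Gsdmc3: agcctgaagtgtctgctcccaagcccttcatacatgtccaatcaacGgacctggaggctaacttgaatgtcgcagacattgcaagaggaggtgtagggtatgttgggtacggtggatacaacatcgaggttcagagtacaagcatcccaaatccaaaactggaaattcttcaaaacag

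Gsdmc4: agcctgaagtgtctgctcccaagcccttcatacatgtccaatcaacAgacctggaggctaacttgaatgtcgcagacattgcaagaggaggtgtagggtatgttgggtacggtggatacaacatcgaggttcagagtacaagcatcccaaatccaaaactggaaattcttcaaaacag

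Gsdmc2 and Gsdmc3 have the same sequence in this exon, so a read from within it can be placed only through a mate that lies elsewhere. The same exon of Gsdmc was 79.2% identical to that of Gsdmc2.

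At the level of the family, 4 of the 7 listed gasdermins were altered by genotype (a difference of 0.6 or more on the log2 scale in either direction, with a Benjamini-Hochberg p below 0.05 over all genes), and all 4 were higher in Pparg-/-epi. Of all 14533 genes, 10.3% were altered either way, 5.19% higher and 5.08% lower. For 3 of the 7 every Pparg-/-epi library lay above every WT library in CPM, a separation in either direction that 7.9% of all genes showed. Every listed gene had more than 0.5 CPM in at least 6 libraries. Gsdma2 had such a level in 1 WT library and in 6 Pparg-/-epi libraries, so it is listed because of its level in Pparg-/-epi and could hardly have been found lower there. Gsdma3 passed in 5 WT and 6 Pparg-/-epi libraries and the other members in all 12. The 7 estimates were all positive, and they stayed positive with RLE size factors, with total counts and in DESeq2. With the upper follicle level as a covariate the estimates of Gsdma3 and Gsdmd turned negative, at -1.16 and -0.53.

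**Figure D1:**
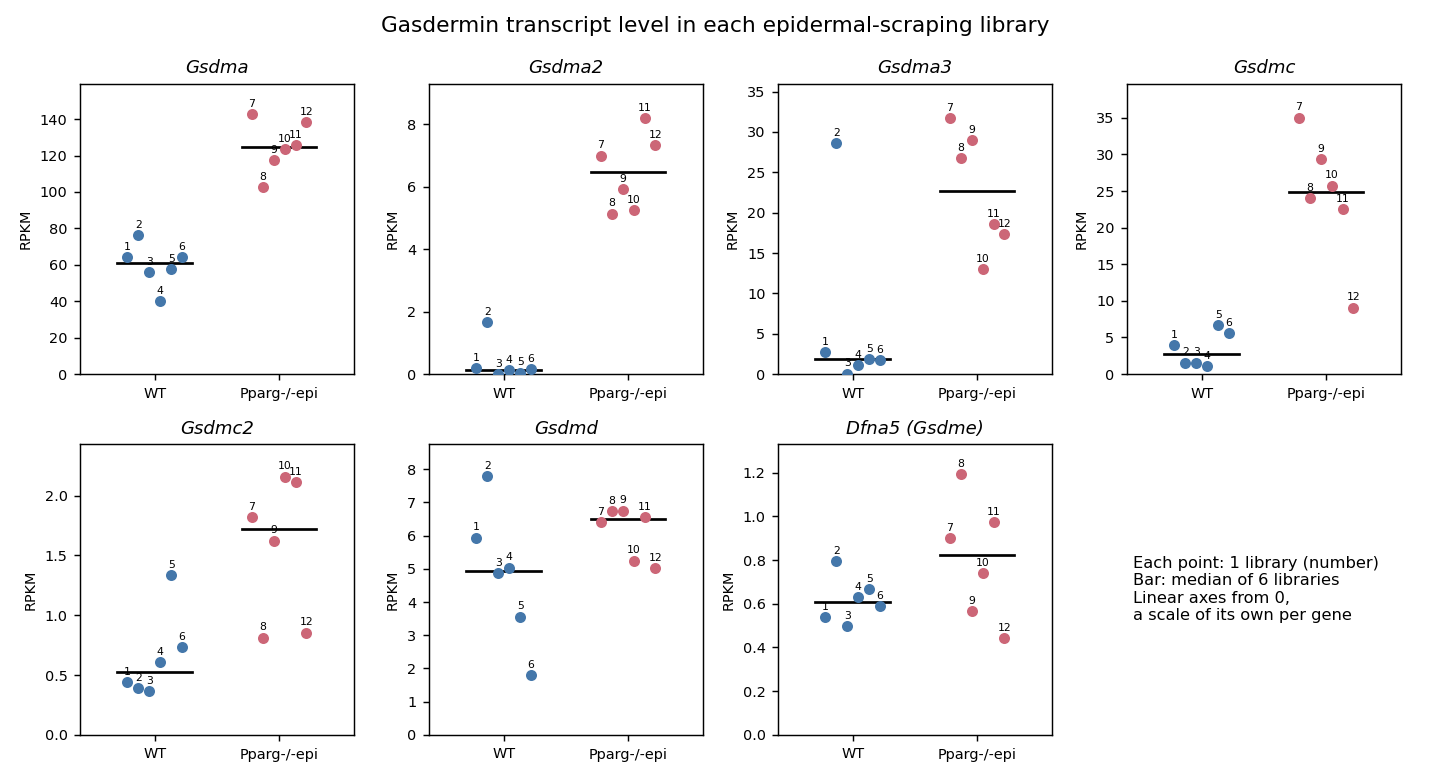
Level of each listed gasdermin in RPKM, on linear axes with a scale of their own per gene, where each point is 1 library with its number and each bar the median of 6. Gsdma was the highest in every library, and the single WT library with Gsdma3 at the level of the Pparg-/-epi libraries was WT 2, at 28.6 RPKM.

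Gsdma was the most abundant member. In WT it lay between 40.2 and 76.4 RPKM (counts scaled by library size, TMM factor and gene length) with a median of 60.8, and in Pparg-/-epi between 103 and 143 with a median of 125. The ranges did not overlap. In CPM it was 163 ± 32.7 in WT and 341 ± 39.0 in Pparg-/-epi (SD, n = 6 each), on 1433 to 7469 counts per library. The log2 fold change of 1.07 (SE 0.14, adjusted p 0.000486) kept its call when any 1 library was left out, with estimates from 0.97 to 1.13. This member has the most counts of the 7.

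Gsdma2 was close to undetected in WT. Its counts in WT 1 to WT 6 were 5, 52, 0, 3, 1 and 4, and in Pparg-/-epi 7 to 12 they were 224, 141, 163, 105, 151 and 142. A count of 0 allows up to 3 counts, or 0.320 CPM in WT 3, for counting error alone. In RPKM it ran from 0 to 1.66 in WT (median 0.136) and from 5.13 to 8.20 in Pparg-/-epi (median 6.46), with no overlap. Mean CPM was 0.602 ± 1.06 in WT and 10.8 ± 2.05 in Pparg-/-epi (SD, n = 6 each). The SD in WT exceeded the mean because WT 2 held 2.76 CPM and the next highest WT library 0.320.

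The log2 fold change of Gsdma2 was 4.04 (SE 0.75, adjusted p 0.00377), a fitted 16.4-fold difference and the 12th largest among the 754 genes that were higher. The call was kept whichever library was left out. Without WT 2 the estimate was 5.78 (SE 0.40, adjusted p 8.79e-06), so the size of the difference depends on that library. Gsdma2 exceeded 0.5 CPM in 1 WT library and in 6 Pparg-/-epi libraries, so it is listed through Pparg-/-epi. Its direction, calls and rank are therefore no independent support for a rise. A ratio against a group with so few counts is loosely bounded, and the per-library counts carry the comparison.

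Gsdma3 varied most between WT mice. Its counts in WT 1 to WT 6 were 64, 796, 1, 25, 35 and 41, and in Pparg-/-epi 7 to 12 they were 901, 652, 706, 231, 303 and 299. In RPKM it ran from 0.0721 to 28.6 in WT (median 1.81) and from 13.0 to 31.7 in Pparg-/-epi (median 22.7). The ranges overlapped through WT 2 alone, and the next highest WT library had 2.77 RPKM. Mean CPM was 8.91 ± 16.4 in WT and 33.6 ± 11.0 in Pparg-/-epi (SD, n = 6 each). The log2 fold change of 1.89 (SE 0.86, adjusted p 0.160) did not pass the threshold, and the SD within WT exceeded the WT mean. Without WT 2 it was 3.85 (SE 0.48, adjusted p 0.000283) and passed. Leaving out any other library gave estimates from 1.64 to 2.01 that did not pass. With RIN as a covariate the estimate was 2.27 (adjusted p 0.0336) and passed. WT 2 had the highest RIN of the WT libraries, 8.6, and whether RNA integrity bears on Gsdma3 was not tested.

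Gsdmc rose from a low level. It lay between 1.04 and 6.70 RPKM in WT (median 2.78) and between 9.09 and 35.0 in Pparg-/-epi (median 24.9), with no overlap. In CPM it was 8.13 ± 5.67 in WT and 57.9 ± 20.7 in Pparg-/-epi (SD, n = 6 each), on 35 to 212 counts in WT and 252 to 1604 in Pparg-/-epi. The log2 fold change was 2.83 (SE 0.47, adjusted p 0.00197) and the call held when any 1 library was left out, with estimates from 2.64 to 3.13. In median RPKM, Gsdmc went from above Gsdma3 in WT to a similar level in Pparg-/-epi.

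Gsdmc2 lay between 0.369 and 1.33 RPKM in WT (median 0.526) and between 0.813 and 2.16 in Pparg-/-epi (median 1.72), and the ranges overlapped. It rested on 8 to 39 counts in WT and 23 to 81 in Pparg-/-epi. The log2 fold change of 1.27 (SE 0.38, adjusted p 0.0379) was past the threshold by a small margin. The call was lost without WT 1 (adjusted p 0.0716), WT 2 (0.0516), WT 3 (0.0743), WT 4 (0.0770), WT 6 (0.0625), Pparg-/-epi 7 (0.0816), Pparg-/-epi 9 (0.0748), Pparg-/-epi 10 (0.0734) or Pparg-/-epi 11 (0.0763). It was kept without WT 5 (0.0110), Pparg-/-epi 8 (0.0320) or Pparg-/-epi 12 (0.0309). With 37% of its windows shared with other genes, Gsdmc2 is reported as uncertain. Part of what is counted under it, or lost from it, may belong to Gsdmc3, Gsdmc4 or Gsdmc.

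Gsdmd and Dfna5 were not altered. Gsdmd ran from 1.81 to 7.80 RPKM in WT (median 4.95) and from 5.03 to 6.75 in Pparg-/-epi (median 6.49), with a log2 fold change of 0.34 (SE 0.27, adjusted p 0.447). Dfna5 ran from 0.4995 to 0.796 RPKM in WT (median 0.610) and from 0.443 to 1.19 in Pparg-/-epi (median 0.822), with a log2 fold change of 0.37 (SE 0.27, adjusted p 0.389). Both differences in mean level were smaller than the larger of the SDs of the groups, and neither passed when any 1 library was left out. Dfna5 rested on 10 to 42 counts per library, and Gsdmd on 51 to 261.

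**Figure D2:**
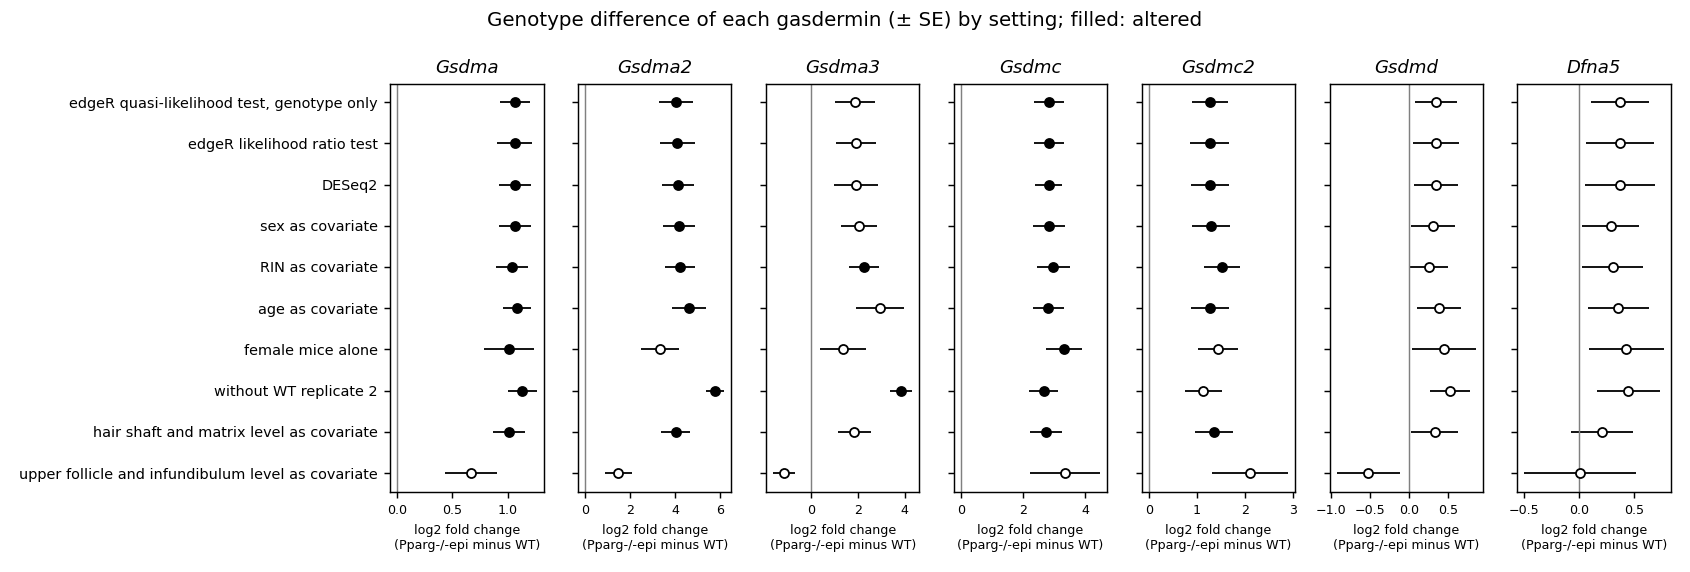
Log2 fold change of each listed gasdermin (Pparg-/-epi minus WT) with its standard error as bars, by test, covariate or libraries used, filled where the gene was altered. With all libraries Gsdma3 stood at 1.89 and was not altered, and without WT 2 it stood at 3.85 and was.

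Summed over the 7 genes, gasdermin RPKM was 75.7 ± 22.9 in WT (48.7 to 117) and 187 ± 20.4 in Pparg-/-epi (168 to 225). The makeup of this sum also differed. Gsdma made up 80.7 ± 8.15% of it in WT and 67.0 ± 6.27% in Pparg-/-epi, Gsdma3 5.89 ± 9.14% and 12.1 ± 3.47%, and Gsdma2 0.363 ± 0.525% and 3.47 ± 0.635%. Gsdmc made up 4.65 ± 3.23% in WT and 12.9 ± 3.99% in Pparg-/-epi (SD, n = 6 each). The mean share of Gsdma3 in WT is mostly that of WT 2, 24.4%. The shares of Gsdmd and Dfna5 were smaller in Pparg-/-epi, at 3.29 ± 0.484% and 0.435 ± 0.168% against 6.61 ± 2.70% and 0.862 ± 0.230%. Their own levels did not fall, so the smaller shares follow from the larger sum. These shares describe transcripts and no cleavage or pore was measured.

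**Figure D3:**
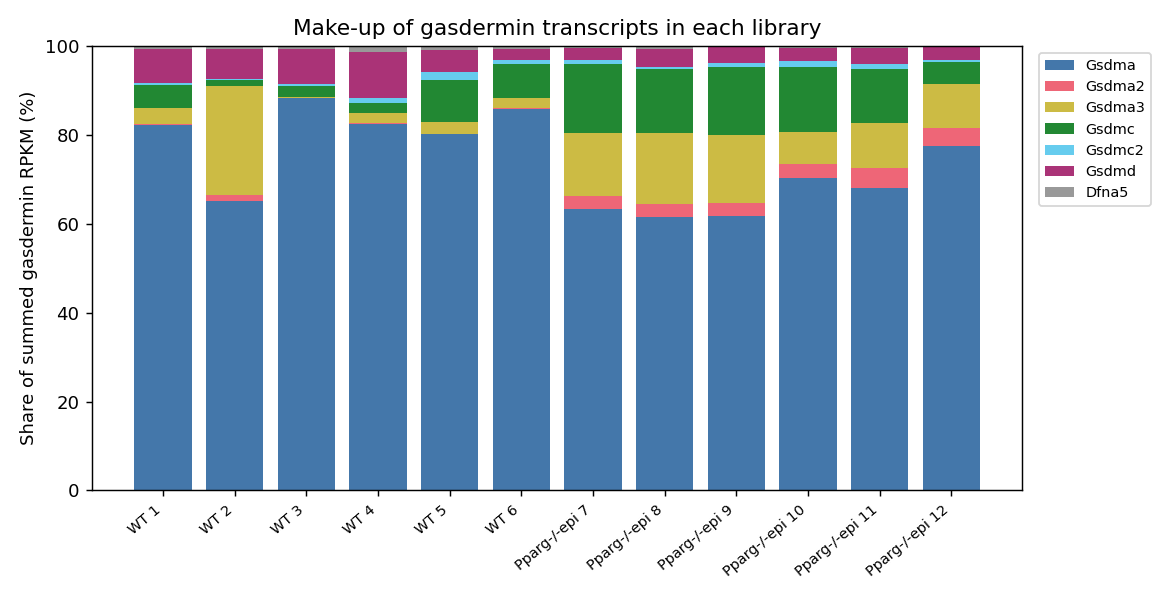
Share of the summed gasdermin RPKM taken by each member in each library, as stacked bars in percent. Gsdma took the largest share in all 12 libraries, and Gsdma3 took 24.4% in WT 2.

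The sexes were compared because the groups differed in their numbers of male and female mice. In female mice alone (3 WT and 4 Pparg-/-epi) the log2 fold change was 3.31 for Gsdma2 (adjusted p 0.0658), 1.02 for Gsdma (adjusted p 0.0495), 3.32 for Gsdmc (adjusted p 0.0237) and 1.45 for Gsdmc2 (adjusted p 0.0923). In male mice alone (3 WT and 2 Pparg-/-epi), a split chosen after seeing the data, it was 6.00 for Gsdma2 (adjusted p 0.0575), 1.13 for Gsdma (adjusted p 0.0575) and 2.07 for Gsdmc (adjusted p 0.255). Gsdma3 had 1.34 in female mice (adjusted p 0.461) and 3.20 in male mice (adjusted p 0.211). The female WT mice include WT 2, the WT library highest in Gsdma2 and Gsdma3. The interaction of sex and genotype in edgeR had adjusted p-values from 0.895 to 0.964 for the 7 genes. It passed for 0 of all genes after adjustment and for 741 at an unadjusted p under 0.05. With sex as a covariate the same 4 gasdermins were altered. A difference between the sexes was thus not detectable with these numbers of mice.

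To relate Gsdma2 and Gsdma3 to follicle content, the level of each compartment in each library was taken as the mean log2 CPM of a list of its marker genes. The lists stood for the hair shaft and matrix, the inner root sheath, the bulge and outer root sheath, the upper follicle with the infundibulum, and the sebaceous gland. The upper follicle level in WT 1 to WT 6 was 6.34, 7.33, 4.96, 5.35, 5.48 and 5.31, and in Pparg-/-epi 7 to 12 it was 7.90, 7.83, 7.87, 7.44, 7.68 and 7.70. The groups did not overlap in this level. The list was chosen with earlier results of these data known, so this separation can partly follow from the choice of genes. The hair shaft level in WT 1 to WT 6 was -0.25, 3.70, 1.76, -0.20, 1.76 and 3.08, and in Pparg-/-epi 7 to 12 it was 3.32, 4.72, 2.13, 1.39, 2.22 and 2.37. These ranges overlapped. The hair shaft list follows the stage of the hair cycle in each piece of skin, and 11 of its 25 listed genes had 0 counts in at least 1 library. A marker level cannot tell fewer cells of a type from less RNA per cell.

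Within each group, 20 relations were computed (2 genes, 5 compartments and 2 groups of 6), and all p-values are two-sided and exact over 720 pairings, which can go no lower than 0.00139. By Pearson's r, 5 relations passed after adjustment over the 20 and 6 before it. By Spearman's rho none passed after adjustment, the smallest adjusted value being 0.0833. A pooled r over both groups was not computed, because the groups differ in level. The 5 relations depend on how levels are computed. With a prior count of 0.5 all 5 had an adjusted value of 0.0556, and with levels from summed CPM none passed, the smallest adjusted value being 0.139.

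Gsdma3 rose with the upper follicle level in both groups. In WT r was 0.910 (exact p 0.00417, adjusted 0.0417) and rho 0.943 (exact p 0.0167), and without the 2 libraries farthest from the median, WT 1 and WT 2, r was 0.951. In Pparg-/-epi r was 0.971 (exact p 0.00278, adjusted 0.0417) and rho 0.943 (exact p 0.0167), and without Pparg-/-epi 7 and Pparg-/-epi 10 r was 0.983. The sign was thus the same with and without the extreme libraries. Leaving out 1 library gave r from 0.735 (without WT 2, adjusted 0.5) to 0.947 in WT and from 0.965 to 0.991 in Pparg-/-epi. With 5 WT libraries no relation passed after adjustment, whichever library was left out, and in Pparg-/-epi this one passed only without Pparg-/-epi 11 or Pparg-/-epi 12. The Pparg-/-epi libraries fell into a set at 39.5 to 46.9 CPM of Gsdma3 (7, 8 and 9, all female) and a set at 19.2 to 27.4 CPM (10, 11 and 12, with 2 male mice). Each set has too few libraries for a relation of its own, so the relation in Pparg-/-epi cannot be told apart from a difference between these sets. RIN was 8.6, 8.5 and 7.7 in the first set and 7.7, 5.7 and 7.1 in the second, and in WT 1 to WT 6 it was 7.4, 8.6, 6.1, 7.1, 5.9 and 6.2, so the WT library with the most Gsdma3 also had the highest RIN. Whether RIN lies behind the relation was not tested. Some markers of other tissues divided the Pparg-/-epi libraries in the same way. Endothelial genes summed to 266, 328 and 284 CPM in 7, 8 and 9 and to 67.5, 131 and 83.9 CPM in 10, 11 and 12, and the fibroblast level was 7.82 to 8.32 in the first set and 6.97 to 7.18 in the second. In WT both levels were highest in WT 1 and WT 2. A relation of Gsdma3 to these lists was not computed, so whether its relation is particular to follicle markers was not tested. The labels give no batch or date. The leading numbers of the mouse names, whose meaning is not stated, are lower in the first set than in the second. Within WT, WT 3 to WT 6 carry the same leading number, while WT 1 and WT 2, the highest in Gsdma3, carry others. Between the groups a leading number is shared by WT 2 and Pparg-/-epi 10 alone, too few libraries for a test. Between these 2, Pparg-/-epi 10 had more Gsdma2 than WT 2 (8.73 against 2.76 CPM) and more Gsdmc (61.3 against 3.77 CPM) but less Gsdma3 (19.2 against 42.2 CPM). Whether the leading numbers bear on the levels was not tested.

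Gsdma3 also rose with other compartments in WT. With the bulge and outer root sheath r was 0.914 in WT (exact p 0.00972, adjusted 0.0444), rho was 0.943 (exact p 0.0167), and r was 0.772 without WT 2 and WT 3. In Pparg-/-epi r was 0.890 (exact p 0.0347, adjusted 0.116), rho was 0.829 (exact p 0.0583), and r was 0.982 without Pparg-/-epi 7 and Pparg-/-epi 8. Without Pparg-/-epi 8 alone r was 0.964 and passed (adjusted 0.0444). With the sebaceous gland r was 0.860 in WT (exact p 0.0111, adjusted 0.0444), rho was 0.943 (exact p 0.0167), and r was 0.667 without WT 2 and WT 3. In Pparg-/-epi r was 0.727 (exact p 0.0958, adjusted 0.192), rho was 0.543 (exact p 0.297), and r was -0.308 without Pparg-/-epi 10 and Pparg-/-epi 12. Since 3 compartments moved together in WT, the relation is not particular to the upper follicle. When the level of the bulge and outer root sheath was taken from summed CPM, where Krt15 weighs most, r was -0.188 in WT and 0.271 in Pparg-/-epi.

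Gsdma2 did not follow the same pattern in Pparg-/-epi. In WT its r with the upper follicle was 0.929 (exact p 0.00833, adjusted 0.0444) and rho 0.771 (exact p 0.103), and r was 0.619 without WT 1 and WT 2. Without WT 2 alone r was 0.705 (adjusted 0.479), so the size of this relation depended on WT 2. Its call was lost whichever WT library was left out. Of the 6 WT counts of Gsdma2, 4 were between 0 and 4. In Pparg-/-epi, where every library had 105 counts or more, r was 0.145 (exact p 0.839, adjusted 0.839) and rho -0.0857 (exact p 0.919). Without Pparg-/-epi 7 and Pparg-/-epi 10 r was -0.886, and without Pparg-/-epi 10 alone it was -0.630. No relation of Gsdma2 to the upper follicle was thus detectable in Pparg-/-epi.

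The hair shaft and the inner root sheath showed no relation that passed before or after adjustment. For the hair shaft r was 0.456 in WT and -0.224 in Pparg-/-epi for Gsdma2, and 0.391 and 0.643 for Gsdma3 (exact p from 0.164 to 0.679, adjusted 0.298 to 0.718). For the inner root sheath r was 0.502 and -0.218 for Gsdma2, and 0.427 and 0.749 for Gsdma3 (exact p from 0.0833 to 0.682, adjusted 0.192 to 0.718). The sign depended on single libraries in WT, and for Gsdma2 in Pparg-/-epi. Without WT 2 the 4 WT values were -0.323 and -0.393 for Gsdma2 and -0.205 and -0.258 for Gsdma3, and without Pparg-/-epi 8, which had the highest hair shaft level, the values for Gsdma2 in Pparg-/-epi were 0.568 and 0.447. Those for Gsdma3 in Pparg-/-epi stayed positive when any 1 library was left out, from 0.432 to 0.833 and from 0.607 to 0.886, without passing. Without the 2 libraries farthest from the median of the hair shaft level r was 0.912 for Gsdma2 and 0.811 for Gsdma3 in WT (without WT 1 and WT 4), and 0.806 and 0.572 in Pparg-/-epi (without Pparg-/-epi 7 and Pparg-/-epi 8). For the inner root sheath it was -0.0602 and 0.0428 in WT (without WT 1 and WT 2) and -0.104 and 0.788 in Pparg-/-epi (without Pparg-/-epi 8 and Pparg-/-epi 10). No relation of either gene to the hair shaft passed with 6 libraries per group, and its size depended on which libraries entered.

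**Figure D4:**
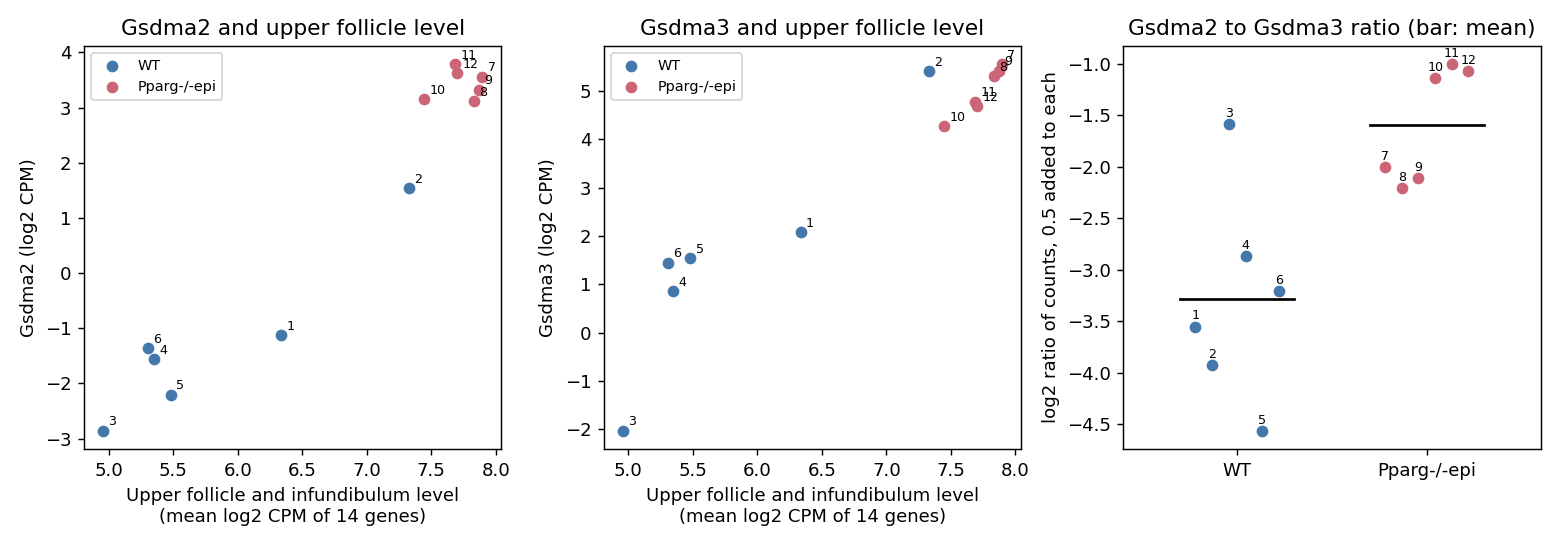
Log2 CPM of Gsdma2 (left) and Gsdma3 (middle) against the upper follicle level (mean log2 CPM of 14 genes), and the log2 ratio of Gsdma2 to Gsdma3 counts with 0.5 added (right, bars are group means), with 1 numbered point per library. The groups are apart on the horizontal axis, where WT 2 at 7.33 lies nearest to the Pparg-/-epi libraries.

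Genotype was also fitted with a follicle level as a covariate. With the hair shaft level the 4 calls were kept, with 4.01 for Gsdma2 on the log2 scale (adjusted p 0.00320). With the upper follicle level none of the 7 passed. Of all 14533 genes 1329 were altered in this fit, and 244 of these were also altered with genotype only. The log2 estimate was 1.47 for Gsdma2 (adjusted p 0.114), 0.67 for Gsdma (adjusted p 0.0826), 3.35 for Gsdmc (adjusted p 0.0727) and 2.11 for Gsdmc2 (adjusted p 0.0962), and it was below 0 for Gsdma3 (-1.16, adjusted p 0.126) and Gsdmd (-0.53, adjusted p 0.402). Because the groups do not overlap in the upper follicle level, genotype and this level cannot be told apart in these 12 libraries.

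The ratio of Gsdma2 to Gsdma3 was taken within each library, where both genes share the same depth. Per 100 counts of Gsdma3 there were 7.81, 6.53, 0, 12, 2.86 and 9.76 counts of Gsdma2 in WT 1 to WT 6, and 24.9, 21.6, 23.1, 45.5, 49.8 and 47.5 in Pparg-/-epi 7 to 12. These ranges did not overlap. Gsdma2 is listed because of its level in Pparg-/-epi, while Gsdma3 exceeded 0.5 CPM in 5 WT libraries. The ratio was therefore prone to be higher in Pparg-/-epi, and its p-values below give no independent support. The mean log2 ratio, with 0.5 added to each count, was -3.28 ± 1.02 in WT and -1.59 ± 0.57 in Pparg-/-epi (SD, n = 6 each), a difference of 1.69 (exact permutation p 0.00866 over every split of the 12 libraries). On this scale WT 3, with 0 and 1 counts, lay among the Pparg-/-epi libraries at -1.58, and without it the difference was 2.03 (exact permutation p 0.00217, the smallest that 462 splits can give). With 2 added to each count the difference was 1.19 (exact permutation p 0.0584). WT 2, with 796 counts of Gsdma3, had a ratio like the other WT libraries, so its high Gsdma3 was not matched in proportion by Gsdma2 as in Pparg-/-epi. Within Pparg-/-epi the ratio was about the same in 7, 8 and 9 and about the same in 10, 11 and 12. The cause of this difference was not tested.

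The marker lists show what else changed in the scrapings. They were chosen with earlier results of these data known, so their counts are a description. Over all 14533 genes 5.19% were higher and 5.08% lower. Of the 14 upper follicle genes 8 were higher and 1, Lgr6, was lower, with a median log2 fold change of 1.54 against -0.01 over all genes. Their summed level ran from 1464 to 7094 CPM in WT and from 7560 to 11884 CPM in Pparg-/-epi, with Krt17 the most abundant per length, the measure used for every list. Teddm3 (log2 fold change 2.75), Krt79 (2.70), Defb6 (2.51), Gata6 (1.89) and Krt17 (1.79) were among the higher ones. Without WT 2, an alternative chosen after seeing the data, 13 were higher and the median was 2.44. The difference in these markers, like that in Gsdma3, was thus larger without WT 2.

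Of 10 genes of stressed keratinocytes 8 were higher (median 3.00), and their summed level ran from 115 to 1707 CPM in WT and from 1597 to 3125 in Pparg-/-epi, with Sprr1a the most abundant. The highest WT sum was that of WT 2, where Sprr1a alone made up 1484 CPM. By mean log2 CPM WT 2 (2.35) lay below WT 3 (4.31), WT 1 (3.64) and WT 5 (3.28), and Krt16 was lowest in WT 2. Of 14 listed sebaceous gland genes 9 were lower and 0 higher (median -2.59), from 611 to 3100 CPM in WT and 255 to 376 in Pparg-/-epi, with Scd1 the most abundant, Pparg itself not altered (-0.10) and 4 of the genes at 0 counts in at least 1 library. The hair shaft list had 0 of 25 genes altered (median 0.63) and the inner root sheath list 1 of 14, Gata3, which was lower (median 1.30). The bulge and outer root sheath list had 1 higher and 2 lower of 18 (median 0.05). Over all genes the shares were 5.19% higher and 5.08% lower. The gasdermins that rose thus did so beside higher upper follicle and stress markers and lower gland markers, and which of these changes carries each gasdermin was not tested.

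The interfollicular lists were read in the same way, beside the 5.19% of all genes that were higher and the 5.08% that were lower. Of 17 suprabasal genes 4 were higher (median -0.02) and of 12 basal genes 1, Krt14, was higher (median -0.16), with Krt10 and Krt5 the most abundant. The 4 suprabasal genes were Ivl, Calm4, Tgm3 and Casp14, and Dsg1a, at -0.60 (adjusted p 0.0310), narrowly missed the fold threshold in the other direction. Leukocyte genes numbered 6 higher and 1 lower of 19 listed (median 0.00), and the lower one was Cd3e. Of the higher ones S100a8 and S100a9 are also made by keratinocytes, and the other 4 are mast cell genes: Cma1 (1.45), Cpa3 (1.68), Mcpt4 (1.17) and Fcer1a, which rose from a mean of 0.0112 to 2.28 CPM. The groups did not overlap in any of these 4, a separation in either direction that 7.9% of all genes showed. Fcer1a did not exceed 0.0672 CPM in any WT library. It is listed because of its level in Pparg-/-epi and could hardly have been found lower there. Cma1, Cpa3 and Mcpt4 were thus higher beside the gasdermins, and whether the changes are linked was not tested. The fibroblast, skeletal muscle and adipocyte lists had 0 altered genes (medians 0.19, -3.81 and -0.49), the endothelial list 1 of 11 (median 1.20) and the melanocyte list 1 of 6 (median 1.55). The endothelial gene was Emcn, and the melanocyte gene was Kit (2.30), which mast cells make too. The counts of the basal and endothelial lists are near the 10.3% of all genes altered either way. Skeletal muscle genes summed to 13229 CPM in WT 5 and to 15.4 CPM in the lowest WT library. Without WT 2 the endothelial list had 6 higher genes and a median of 1.94.

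Genes that act with gasdermins were read in the same fit. Of 8 listed proteases that cleave gasdermins 3 were higher and 0 lower (median 0.74), where 5.19% of all genes were higher and 5.08% lower. These were Casp1 (log2 fold change 1.10, SE 0.18, adjusted p 0.00175), Casp4 (1.12, SE 0.16, adjusted p 0.000975) and Gzmb (1.71, SE 0.47, adjusted p 0.0264). The 8 genes summed to 128 to 197 CPM in WT and 243 to 287 in Pparg-/-epi, without overlap. Casp8, at 0.38, passed the adjusted p (0.0164) but not the fold threshold. Gzmb rested on 2 to 44 counts per library and its groups overlapped in CPM, while those of Casp1 and Casp4 did not. Mmp12 had the largest estimate of the 8 (1.85, adjusted p 0.109) and did not pass. The fit says nothing of the activity of these proteases.

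Of 15 listed inflammasome sensors and adaptors, Aim2 (1.88, adjusted p 4.68e-05) and Nod2 (1.48, adjusted p 0.00177) were higher and Nlrp1b was lower (-1.41, adjusted p 0.00148). The median was 0.12, and Pycard, the most abundant, was not altered (-0.07, adjusted p 0.839), nor was Nlrp3 (1.07, adjusted p 0.0532). Of 12 cargo genes 6 were higher and 1 lower (median 0.95). Beside both lists, 5.19% of all genes were higher and 5.08% lower. Among the cargo genes Il1f6 (3.90), S100a9 (2.74), S100a8 (2.74), Il1f8 (2.11), Il18 (1.006) and Il1f9 (0.88) were higher. Il33 was lower (-0.86), and Il1b (1.55, adjusted p 0.0622) did not pass. Cargo genes summed to 510 to 795 CPM in WT and 894 to 1250 in Pparg-/-epi, with Il18 the most abundant per length. Whether the lists differ in how many genes changed was not tested. Il1f6 stands on the stress list too, and S100a8 and S100a9 on the leukocyte list, so these counts overlap.

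Of 16 listed genes of membrane rupture and repair none was altered (median -0.06), Ninj1 among them (0.40, adjusted p 0.0871). Of 18 regulators of gasdermins 1, Serpinb1a, was higher (1.23, adjusted p 0.00651) and 0 lower (median 0.05), a share like that of all genes. Zdhhc5 passed the adjusted p (0.0237) with a log2 fold change of 0.34, and Irf1 (0.64, adjusted p 0.0650) and Irf2 (-0.28, adjusted p 0.0650) did not. Without WT 2 the numbers higher were 4 proteases, 3 sensors, 8 cargo genes and 2 regulators, in a fit where the number over all 14533 genes rose from 754 to 1303.

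**Figure D5:**
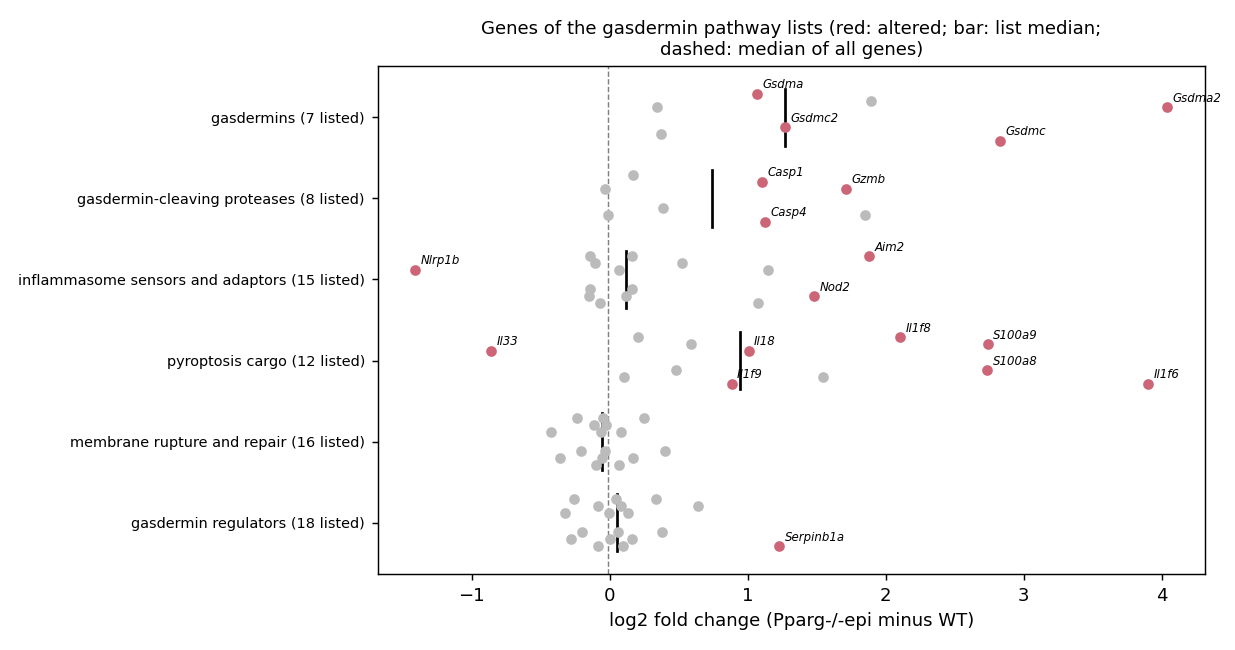
Log2 fold change (Pparg-/-epi minus WT) of the gasdermins and of each listed gene that acts with them, by list, with altered genes in red, a bar at each list's median and a dashed line at the median of all genes. Below the gasdermins, the cargo list has the highest median, 0.95, and the rupture and repair list the lowest, -0.06.

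Position was looked at because neighbouring genes can change together. Next to the Gsdma cluster, Ormdl3 (log2 fold change 0.08, adjusted p 0.567) and Psmd3 (0.14, adjusted p 0.342) were not altered, nor were Grb7, Med24 and Thra. Ikzf3, which lies beyond Ormdl3 and is made by lymphocytes, was higher (1.88, adjusted p 0.0222). Around the Gsdmc cluster none of 9930014A18Rik, Myc, Pvt1, Fam49b, Asap1 and Efr3a was altered, nor was any of the 6 neighbours of Gsdmd. The closest listed neighbours of Dfna5, Mpp6 (0.67, adjusted p 0.0536) and Osbpl3 (0.71, adjusted p 0.129), were not altered, nor was Cycs. Mpp6 lies at 8805 bases and Osbpl3 at 31558 bases. Farther off, Npy (3.45, adjusted p 0.0135) at 377898 bases and Nfe2l3 (0.75, adjusted p 0.00709) at 1170901 bases were higher. Fam221a (-1.03, adjusted p 0.0238) at 817499 bases was lower. Of all genes, 10.3% were altered either way. The listed neighbours of the Gsdmc cluster before it lie far off, the nearest, Pvt1 (0.77, adjusted p 0.0679), at 1524996 bases, and the nearest after it, Fam49b, lies at 83918 bases. Whether neighbours share the change was not tested. The reference held a promoter window of 300 bases for 3 of the 9 family genes (Gsdma3, Gsdmc3 and Gsdme), and none of these is among the 4 altered members. None of the windows held a PPAR direct repeat, found in 0.0396% of all promoters, or an AP-1 (7.81%), STAT (8.3%), GATA (11.2%) or TEAD (14.7%) motif, and with so few windows such an outcome says little.

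Each gasdermin was also compared with all genes of at least 1 CPM by its variation among the 12 libraries after the group means were subtracted. This likeness is a description, since WT 2 and other single libraries can carry it. Nearest to Gsdma3 were Fam26e (r 0.988), Rgs4 (0.981), Cd4 (0.971), Usp43 (0.969) and Gata6 (0.968). Gata6 is on the upper follicle list, while Fam26e, Rgs4, Cd4 and Usp43, which were nearer, are on none of the lists. Nearest to Gsdma2 were Plb1 (0.983) and Plcd3 (0.976), to Gsdma Scaf1 (0.938) and Bcl3 (0.870), and to Gsdmc Kars (0.907) and Serpinb3a (0.900), the last on the stress list. Gsdmd varied most like Sema6b (0.983), Cyba (0.966) and Pld4 (0.963), and Dfna5 like Btk (0.914). Cd4, Cyba, Pld4 and Btk are known mainly from leukocytes, and whether the Gsdma3, Gsdmd and Dfna5 counts come from such cells was not tested.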

How the data were processed

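Scraped epidermis of 12 mice was sequenced. The deposited values are read counts per gene, which the authors made with STAR 2.5.2b and featureCounts (Subread 1.5.1) on mm10 after removing multi-mapped reads, per their processing notes. The labels name no mouse for Pparg-/-epi 11 and 12, and their columns were assigned through the run sheet of the study. The strand setting is not stated. Of 17333 rows, 2800 blank ones were dropped, and 14533 genes were tested. edgeR 4.0.16 in R 4.3.3 (quasi-likelihood test, TMM, genotype only, Benjamini-Hochberg adjustment over all genes) gave fold changes, and SE is the estimate divided by the square root of F. Altered means a difference of 0.6 or more on the log2 scale in either direction with an adjusted p below 0.05. RPKM used the deposited gene lengths. Log2 CPM used a prior count of 2. Depth limits low genes: 1 count was worth 0.0520 to 0.107 CPM, and limits from counts cover counting error only. Exact permutation tests, all two-sided, and figures used Python 3.11.15 with numpy 2.4.6, scipy 1.17.1 and matplotlib 3.10.9. Genes named in the text are all listed gasdermins, genes of the pathway lists, the most abundant and most altered markers, the nearest neighbours, the genes most alike, and Pparg. Members and lists were chosen with earlier results of these data known. Alternatives were the edgeR likelihood ratio test, DESeq2 1.42.0, RLE factors, total counts, a minimum mean of 10 counts, covariates (sex, RIN, age, follicle levels), female mice alone and leaving out each library. Male mice alone, and the lists without WT 2, were added after seeing the data. The genotype tests were checked on simulated data first.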

Additional observations from a re-analysis of the deposited data

Results flagged for a closer look

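In 58 groups of 6 libraries, the highest or lowest library was compared with the rest by the gap to its nearest neighbour over the whole range (Dixon's test). Chance alone marks about 1 in 20 groups, and 15 were marked. Groups that share libraries and genes are not independent.

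WT 2 was marked in 7 of them. It was the highest WT library for Gsdma3 (42.2 CPM, the next 4.09), for Gsdma2 (2.76 CPM, the next 0.320), and for the summed CPM of the upper follicle list (7094, the next 2740), the stress keratinocyte list (1707, of which Sprr1a made up 1484, the next 518) and the leukocyte list (3294, the next 2004). It was the lowest for pyroptosis cargo (510, the next 724) and for the interfollicular suprabasal list (26452, the next 54801). In mean log2 CPM of the stress list it was not the highest (2.35, against 4.31 in WT 3). Whether this mouse, its skin or its scraping differed was not tested.

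Pparg-/-epi 8 was marked in 6. It was the highest Pparg-/-epi library in summed CPM for the hair shaft (972, the next 413), the inner root sheath (5214, the next 2218), skeletal muscle (549, the next 189), adipocytes (198.9, the next 81.7) and melanocytes (229.9, the next 107). It was the lowest for gasdermin regulators (1057, the next 1148). The last 2 were WT 1, highest for fibroblast genes (39517 CPM, the next 12003), and WT 5, highest for skeletal muscle genes (13229 CPM, the next 379.5). The causes were not tested.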

How the results depend on the processing

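All 7 gasdermins kept their direction under the other tests, scalings and filter and under the sex, RIN, age and hair shaft covariates, and Gsdma, Gsdma2, Gsdmc and Gsdmc2 kept their calls there. For Gsdma2 the direction could hardly have differed, because it is listed for its level in Pparg-/-epi. Gsdma3 became altered with RIN as a covariate (2.27), and with age as a covariate its estimate rose to 2.94 (adjusted p 0.0771) without passing. In female mice alone 651 genes and 2 gasdermins were altered, and Gsdma2 (3.31) and Gsdmc2 (1.45) lost their calls. In male mice alone, chosen after seeing the data, so did Gsdma2 (6.00), Gsdma (1.13), Gsdmc (2.07) and Gsdmc2 (1.05). Fewer mice entered both. With the upper follicle level as a covariate Gsdma3 (-1.16) and Gsdmd (-0.53) changed sign, and Gsdma2 (1.47), Gsdma (0.67), Gsdmc (3.35) and Gsdmc2 (2.11) lost their calls. In that fit 1329 of all 14533 genes were altered, and 244 of these were also altered with genotype only. The cause of the changed signs and lost calls was not tested.

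Leaving out 1 library gave 1116 to 2249 altered genes, the highest without WT 2. Gsdma3 ran from 1.64 to 3.85 and was altered only without WT 2, and Gsdmc2 ran from 1.14 to 1.604 and lost its call in 9 of 12. The difference in the Gsdma2 to Gsdma3 ratio fell to 1.19 and lost its call with 2 added to each count.

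Among the follicle relations, a prior count of 0.5 left all 5 adjusted values at 0.0556, with r of 0.901 for Gsdma2 and the upper follicle in WT, and for Gsdma3 of 0.887 (upper follicle, WT), 0.971 (upper follicle, Pparg-/-epi), 0.919 (bulge, WT) and 0.854 (sebaceous gland, WT). With levels from summed CPM the first 3 were 0.927, 0.868 and 0.771 and the sebaceous gland 0.839, none past the threshold, and the bulge changed sign for Gsdma3 in WT (-0.188) and for Gsdma2 in WT (-0.486) and Pparg-/-epi (0.227).

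Leaving out 1 library gave these ranges of r. In WT Gsdma2 ran from 0.705 to 0.962 with the upper follicle, -0.323 to 0.584 with the hair shaft and -0.393 to 0.659 with the inner root sheath. In WT Gsdma3 ran from 0.819 to 0.971 with the bulge, 0.735 to 0.947 with the upper follicle, 0.726 to 0.954 with the sebaceous gland, -0.205 to 0.618 with the hair shaft and -0.258 to 0.672 with the inner root sheath. The 4 sign changes were all without WT 2. In Pparg-/-epi Gsdma3 ran from 0.965 to 0.991 with the upper follicle and 0.852 to 0.964 with the bulge. There Gsdma2 ran from -0.685 to 0.568 with the hair shaft, -0.686 to 0.447 with the inner root sheath, -0.750 to 0.155 with the bulge, -0.630 to 0.371 with the upper follicle and -0.233 to 0.776 with the sebaceous gland, changing sign without Pparg-/-epi 8 or Pparg-/-epi 10. With 5 libraries an exact p over all pairings has few values, which limits what can pass.

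Without WT 2 the number of higher genes rose from 754 to 1303 of all 14533 genes and rose for 11 lists, among them regulators (1 to 2), inner root sheath (0 to 4), bulge (1 to 4), upper follicle (8 to 13) and endothelium (1 to 6), and 1 suprabasal gene became lower. No paired analysis was possible because the replicate numbers of the groups differ (1 to 6 and 7 to 12), and of the leading numbers in the mouse names a single one, that of WT 2 and Pparg-/-epi 10, is shared. Gsdma2 in WT, Gsdmc2 and Dfna5 rest on few counts.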
